A study of Mus musculus with 12 samples.

Results

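The interleukin-1 (IL-1) family and the epithelial alarmin thymic stromal lymphopoietin were followed through 10 genes in the skin of mice with atopic dermatitis (AD)-like lesions. The 10 genes were chosen by name: the cytokines Il1a, Il1b, Il18, Il33 and Tslp, the receptor chains Il1r1, Il1rap and Il1rl1, the decoy receptor Il1r2 and the receptor antagonist Il1rn. Each symbol matched 1 of the 23282 entries of the deposited gene counts, and all 10 genes passed the filter on low counts. Skin RNA came from 5 AD mice and 7 HF + AD mice (labelled AD+OB), with 1 library per mouse. All were wild-type male C57BL/6J mice, 5 weeks old at the start, and both groups received 0.5% dinitrochlorobenzene (DNCB), a contact sensitizer, on the dorsal skin for 6 weeks. AD mice ate normal chow, and HF + AD mice ate a diet with 60% of its calories from fat, begun 4 weeks before DNCB and continued during it. The comparison therefore asks how the high-fat diet altered these genes in skin that DNCB had inflamed in both groups, and skin without DNCB was not analysed here.

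IL-1α and IL-1β bind the receptor IL-1R1, which recruits the accessory chain IL-1RAP and signals through MyD88, IRAK kinases and TRAF6 to NF-κB. The antagonist encoded by Il1rn occupies the same receptor without signalling, and the decoy IL-1R2 captures the ligands. Keratinocytes store IL-1α and IL-33 and release them when injured, whereas IL-1β and IL-18 are cut to their active forms by caspase-1 in inflammasomes. IL-33 acts through ST2, the product of Il1rl1, together with IL-1RAP on mast cells, type 2 lymphocytes and other cells, and TSLP, a cytokine outside the IL-1 family, is made by keratinocytes and acts on dendritic cells and lymphocytes. In atopic skin IL-33 and TSLP are known as upstream signals of type 2 inflammation.

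A group of 3 genes lies together on chromosome 1 of GRCm38 (GENCODE M21): Il1r2 spans 40074079 to 40125231, Il1r1 spans 40225080 to 40317257 and Il1rl1 spans 40429570 to 40465415, all on the plus strand. On chromosome 2, Il1rn spans 24336853 to 24351494 on the plus strand, far from the neighbours Il1a and Il1b. Il1a spans 129299610 to 129309972 and Il1b spans 129364570 to 129371139, both on the minus strand. Il18 lies on chromosome 9 (50554827 to 50581840), Il1rap on chromosome 16 (26581704 to 26730117) and Il33 on chromosome 19 (29925114 to 29960718), all on the plus strand. The neighbouring genes Il1a and Il1b encode ligands of the same receptor but were read at very different levels, so the 250 bases before their annotated start sites are shown (RefSeq, build GRCm38.p6, chr2:129309973-129310222 and chr2:129371140-129371389, each read 5′ to 3′ on the minus strand). Capitals mark the TATA box letters TATAAA.
Il1a: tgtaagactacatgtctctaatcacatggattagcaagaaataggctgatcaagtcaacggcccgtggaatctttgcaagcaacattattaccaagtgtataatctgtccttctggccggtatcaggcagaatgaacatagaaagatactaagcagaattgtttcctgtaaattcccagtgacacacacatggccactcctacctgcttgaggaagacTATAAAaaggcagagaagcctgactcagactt
Il1b: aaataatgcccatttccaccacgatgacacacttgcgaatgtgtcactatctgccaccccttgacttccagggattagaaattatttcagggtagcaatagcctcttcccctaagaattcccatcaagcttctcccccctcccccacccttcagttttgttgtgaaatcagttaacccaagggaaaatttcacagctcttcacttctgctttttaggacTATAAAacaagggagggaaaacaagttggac

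The TATAAA match begins 32 bases before the start of Il1a and 31 bases before that of Il1b, at nearly the same place in both stretches. Over all 32851 RefSeq windows of 250 bases before and 50 after a start, 13.6% held TATAAA on either strand. A promoter entry was found for 9 of the 10 genes, with 14 windows in all, and TATAAA was found in 6 of these windows, from 5 genes. Such matches describe the letters only.

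Library totals were 9746937 to 11688979 counts in AD mice, and in HF + AD mice they were 10726845 to 13462434. A count of 0 allows up to 0.308 CPM (counts of a gene relative to the library total) in an AD library and 0.280 CPM in an HF + AD library, for counting error only. The groups differed in an estimate of how often the same molecule was read, made from how often genes had a count of 0. Expected counts came from the other mice of the group, so differences between mice also raise this estimate. The median r between libraries was 0.895 within AD and 0.962 within HF + AD mice, and the share of each source was not tested. The estimated counts per RNA molecule ranged from 12.01 to 32.2 in AD libraries and from 3.86 to 7.29 in HF + AD libraries without overlap, and 13100 to 15063 against 15522 to 16677 genes had a count. With several counts per molecule, a count of 0 allows more than the limits given above, and most in AD libraries. Diet and this redundancy cannot be told apart in these samples. The tissue label was checked against its markers, and the keratins Krt5, Krt14, Krt1 and Krt10 and the collagen Col1a1 were read in every library. The kit reads the 3′ end of each mRNA, so CPM does not grow with transcript length.

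Of the 10 genes, 1 passed an adjusted p of 0.05 in edgeR's quasi-likelihood test with Benjamini–Hochberg adjustment over 14163 genes: Tslp, which fell in HF + AD skin. This is 10% of the genes, beside 9.2% of all genes tested (4.77% lower and 4.43% higher in HF + AD mice). Of the calls over all genes 48.1% were higher in HF + AD mice, a share that was 59.1% with library totals alone and 35.2% when each library was corrected for its trend with GC content, and Tslp was lower under both. At an unadjusted p under 0.05 there were 2, Tslp and Il1r1, both lower, or 20% beside 25.1% of all genes (12.8% lower). None of the 10 had groups that did not overlap, beside 5.46% of all genes (2.56% lower). The fitted difference was below 0 for 6 genes and above 0 for 4, with a median log2 fold change of −0.37 (HF + AD minus AD) where the median of all genes was 0.02. The median size of the change was 0.50 on the log2 scale beside 0.37 for all genes. The calls made among the 10 genes were thus about as frequent as among all genes, and the gene-by-gene values follow by role. In whole skin, fewer cells of a type and less RNA per cell cannot be told apart.

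**Figure D1:**
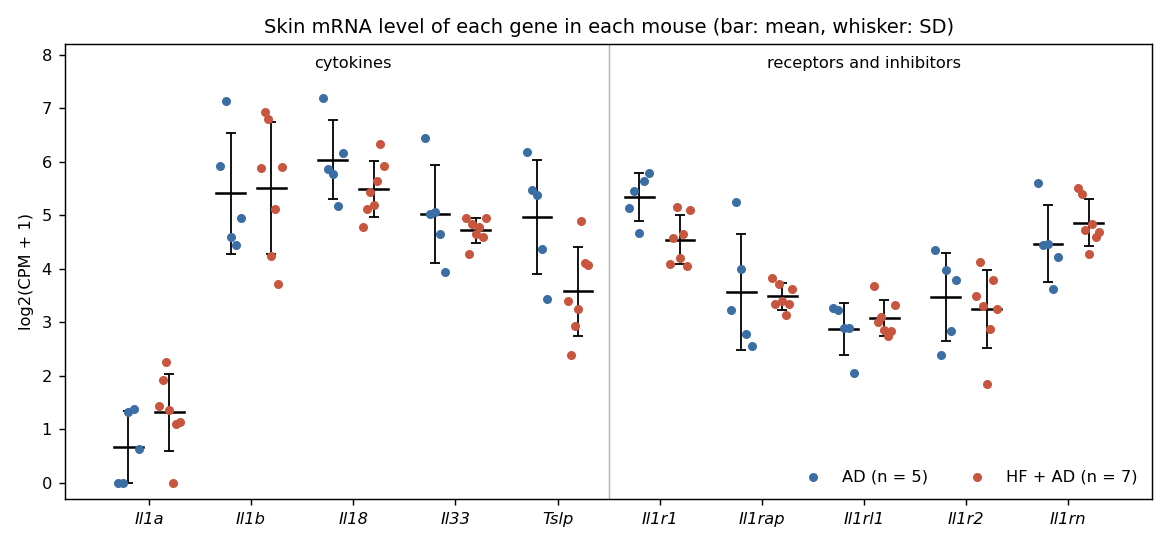
Level of each of the 10 genes in each mouse, as log2(CPM + 1) on the y axis, with 5 AD mice in blue and 7 HF + AD mice in red, a bar at each mean and whiskers of 1 SD. Values of both groups overlap for all 10 genes, the means lie farthest apart for Tslp (4.97 in AD and 3.58 in HF + AD), and Il1a is near the floor of detection.

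Tslp, the keratinocyte alarmin, was read at 71.8, 43.5, 40.4, 19.6 and 9.87 CPM in AD mice 1 to 5. In the 7 HF + AD mice it ranged from 4.27 to 28.8 CPM, with a median of 9.48 CPM. Levels were highest in AD mice 1, 2 and 3, and 4 of the 7 HF + AD mice lay below every AD mouse while the other 3 lay within the AD range. The mean log2(CPM + 1) was 4.97 ± 1.07 (SD, n = 5) in AD and 3.58 ± 0.84 (SD, n = 7) in HF + AD mice (two-sided exact permutation p = 0.0341, where the smallest p that 5 against 7 mice allow is 0.00126). In the fit across all genes the level fell 2.90-fold (log2 fold change −1.53, SE 0.46, edgeR adjusted p = 0.0449). The direction was kept without each mouse in turn, from −1.87 to −1.14, but the adjusted p lay under 0.05 only without AD mouse 4, AD mouse 5 or HF + AD mouse 5. It was 0.113, 0.0857 and 0.0798 without AD mice 1, 2 and 3, and between 0.0610 and 0.0921 without HF + AD mouse 1, 2, 3, 4, 6 or 7.

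In the AD mice the levels of Tslp had the same order as library redundancy, a relation that was not tested within these 5 mice. AD mice 1, 2 and 3, with an estimated 32.2, 29.2 and 16.5 counts per molecule, had the 3 highest levels, and AD mice 4 and 5, with 12.2 and 12.01, had the lower ones. The sizes did not move together, since AD mice 2 and 3 had 43.5 and 40.4 CPM, and AD mice 4 and 5 had 19.6 and 9.87 CPM. Within the 7 HF + AD mice Pearson's r between log2(CPM + 1) and the counts per molecule was 0.719 (exact permutation p = 0.0740, 0.244 after adjustment over 10 relations) and Spearman's rho was 0.714 (exact permutation p = 0.0881, adjusted 0.220). Without the 2 mice farthest from the median in counts per molecule, r was 0.671. With the counts divided by each library's counts per molecule, the log2 fold change of Tslp was −1.42 and its edgeR adjusted p was 0.0504, just past the threshold, over 11070 tested genes. This division scales all genes of a library alike before normalization, so it cannot correct the relative level of a gene for redundancy. For Il1r1 the same relation within the HF + AD mice had an r of 0.103 (exact permutation p = 0.816, adjusted 0.816) and a rho of −0.07 (exact permutation p = 0.906, adjusted 0.906), with an r of −0.56 without the same 2 mice. The order seen for Tslp in the AD mice was also that of Il1rl1, with AD mice 3 and 4 nearly tied. Within the HF + AD mice, however, the rho of Il1rl1 with the counts per molecule was −0.79. The part of redundancy in the difference between groups was not tested.

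**Figure D2:**
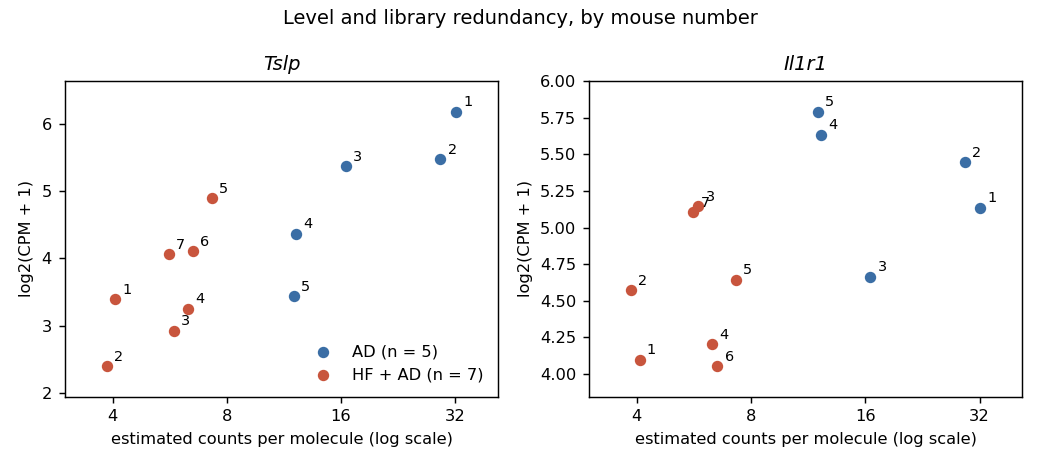
Level of Tslp (left) and Il1r1 (right), as log2(CPM + 1), against the estimated counts per RNA molecule of the library on a log axis, with 1 point per mouse (blue, 5 AD mice; red, 7 HF + AD mice) and the mouse number beside it. All HF + AD libraries lie at 7.29 counts per molecule or less and all AD libraries at 12.01 or more, and the AD mice with the most counts per molecule have the highest Tslp but not the highest Il1r1.

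Il33, the other alarmin of type 2 inflammation, was read at 85.7, 31.4, 32.3, 24.2 and 14.3 CPM in the AD mice and at 18.4 to 30.1 CPM, with a median of 26.3, in the HF + AD mice. All 7 HF + AD mice lay within the AD range, which was set at its top by AD mouse 1. The spread was narrower in HF + AD mice, with an SD of 0.24 against 0.91 on the log2(CPM + 1) scale. The log2 fold change was −0.55 (SE 0.32, interval of 2 SE from −1.20 to 0.09, edgeR adjusted p = 0.306), and without AD mouse 1 it was 0.01. No difference in Il33 was thus detected, and the fitted value rested on 1 mouse.

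Il1a, the stored keratinocyte ligand, was near the limit of detection. Its counts were 0, 0, 15, 18 and 6 in AD mice 1 to 5, and in HF + AD mice they ranged from 0 to 52 with a median of 18. In CPM, AD mice reached 1.59 and HF + AD mice 3.77, and 3 of the 7 HF + AD mice lay above every AD mouse. The log2 fold change was 1.24 with an SE of 1.13 (edgeR adjusted p = 0.542), and the exact permutation p was 0.149, so no difference was detected. The libraries with a count of 0, AD mice 1 and 2 and HF + AD mouse 5, had the most counts per molecule of their groups (32.2, 29.2 and 7.29). That estimate is itself made from how often low genes had a count of 0, so the match is partly built in. The gene Gm14023 overlaps Il1a on the opposite strand near its 3′ end and had 287 counts in all, and whether reads were counted by strand is not given in the sources used here.

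Il1b, the inflammasome-processed ligand made largely by myeloid cells, was read far more than Il1a and varied widely among mice of 1 group. The AD values were 59.5, 139.1, 23.2, 20.7 and 29.8 CPM, and the HF + AD values ranged from 12.1 to 121.3 CPM with a median of 58.0. Each group held mice above 100 CPM and mice near 20 CPM or lower. The means of log2(CPM + 1), 5.41 ± 1.12 (SD, n = 5) and 5.51 ± 1.23 (SD, n = 7), differed by far less than the spread (exact permutation p = 0.890). The fit gave a log2 fold change of 0.12 with an interval of 2 SE from −0.97 to 1.20 (edgeR adjusted p = 0.927). Leaving out AD mouse 3, 4 or 5 turned the sign, as did leaving out mouse 2 or 3 of the HF + AD group, with values down to −0.16.

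Il18, a ligand that keratinocytes make constitutively, was read at 144.9, 57.2, 53.8, 35.1 and 70.7 CPM in AD mice and at 26.4 to 79.8 CPM, with a median of 42.4, in HF + AD mice. AD mouse 1 was again the highest, and 2 of the 7 HF + AD mice lay below every AD mouse. The log2 fold change was −0.63 (SE 0.31, edgeR adjusted p = 0.214), with an exact permutation p of 0.169 on the mean difference. Without AD mouse 1 it was −0.21. Il18 did not pass the test in any of the 22 alternative fits.

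Il1r1, the signalling receptor for IL-1α and IL-1β, had the second-lowest fitted value of the 10 genes, after Tslp, and missed the threshold. AD mice 1 to 5 had 34.1, 42.6, 24.3, 48.7 and 54.4 CPM, and HF + AD mice ranged from 15.6 to 34.4 CPM with a median of 22.8. Of the 7 HF + AD mice, 5 lay below every AD mouse, and mice 3 and 7, at 34.4 and 33.4 CPM, lay within the AD range. The mean log2(CPM + 1) was 5.33 ± 0.45 (SD, n = 5) in AD and 4.55 ± 0.46 (SD, n = 7) in HF + AD mice (two-sided exact permutation p = 0.0152). The fit across all genes gave a log2 fold change of −0.80 (SE 0.25), or 1.75-fold, with an edgeR adjusted p of 0.0545. The adjusted p lay under 0.05 in 6 of the 22 alternatives. It was 0.0368 when AD mouse 3 was left out, 0.0368 when HF + AD mouse 3 was and 0.0461 when HF + AD mouse 7 was. The fitted change without single mice ran from −0.95 to −0.66. The exact permutation p stayed under 0.05 in all 15 alternatives of that test, from 0.0108 to 0.0346.

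Il1rap, the accessory chain that the IL-1 and IL-33 receptors share, was read at 8.44, 36.8, 15.0, 5.84 and 4.89 CPM in AD mice. The HF + AD values, from 7.78 to 13.3 CPM with a median of 9.57, all lay within the AD range and were much closer to each other. The fitted log2 change of −0.45 (SE 0.43, edgeR adjusted p = 0.554) rested on AD mouse 2 and was 0.28 without it. Il1rl1, which encodes the IL-33 receptor chain ST2, was read at 8.62, 8.39, 6.46, 6.46 and 3.17 CPM in AD mice and at 5.72 to 11.9 CPM, with a median of 6.98, in HF + AD mice. Only 2 HF + AD mice lay above the AD range, and the log2 fold change was 0.21 (SE 0.37, interval of 2 SE from −0.53 to 0.95, edgeR adjusted p = 0.779). The gene adjoins Il18r1 at its 3′ end, which had 250 counts in all.

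Il1r2, the decoy receptor, was read at 19.5, 4.25, 14.8, 6.10 and 12.8 CPM in AD mice and at 2.61 to 16.5 CPM, with a median of 8.92, in HF + AD mice. The log2 fold change was −0.28 (SE 0.44, interval of 2 SE from −1.16 to 0.60, edgeR adjusted p = 0.743). An antisense gene, Gm16894, overlaps it and had 308 counts in all. Il1rn, the receptor antagonist, was read at 47.3, 20.8, 21.1, 11.3 and 17.6 CPM in AD mice. Its HF + AD values ran from 18.4 to 44.3 CPM with a median of 25.4, and all 7 lay within the AD range. The log2 fold change was 0.31 (SE 0.31, interval of 2 SE from −0.32 to 0.94, edgeR adjusted p = 0.595), and without AD mouse 1, the highest of its group, it was 0.73 with an edgeR adjusted p of 0.0903. Neither inhibitor of IL-1 thus passed the test.

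**Figure D3:**
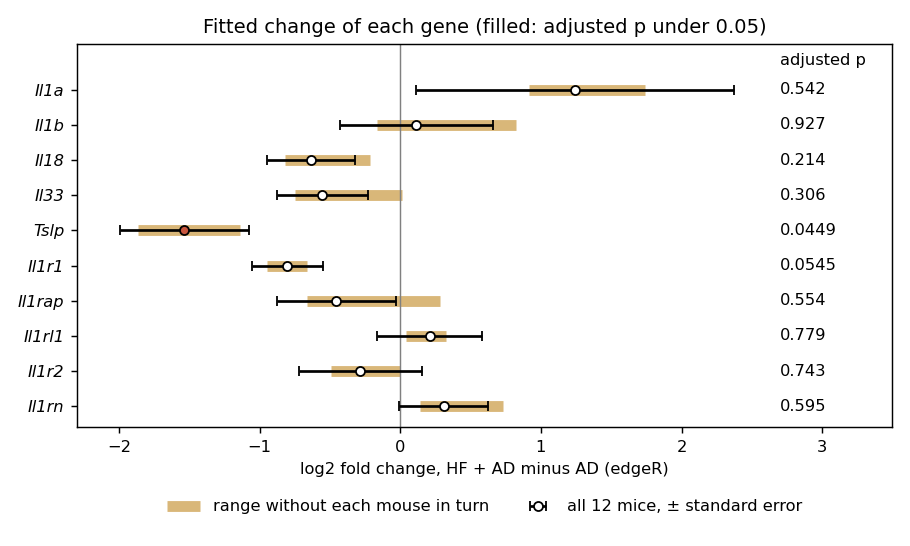
Fitted log2 fold change of each gene (HF + AD minus AD) on the x axis, with whiskers of 1 SE from all 12 mice, a band for the range of fits without each mouse in turn, and the edgeR adjusted p at the right. The filled point, Tslp, has an adjusted p under 0.05, and the bands of Il1b, Il33 and Il1rap cross 0.

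The other genes of the same pathways were read from 5 lists with 69 genes, of which 55 were tested and 5 were called, or 9.09% beside 9.2% of all genes. Signalling genes downstream of the IL-1 receptor held 2 of the calls, both lower, among 17 tested (10 above 0 and 7 below, median log2 fold change 0.12). Traf6, the ubiquitin ligase that relays the receptor signal, fell from 39.7 to 64.2 CPM in AD mice to 26.5 to 39.2 CPM in HF + AD mice. All 7 HF + AD mice lay below every AD mouse (log2 fold change −0.68, SE 0.17, edgeR adjusted p = 0.0195, two-sided exact permutation p = 0.00126). Nfkbia, which encodes the NF-κB inhibitor IκBα and is itself induced by NF-κB, fell from 461 to 616 CPM to 343 to 446 CPM, again with all 7 below (log2 fold change −0.43, SE 0.12, edgeR adjusted p = 0.0289). Traf6 was called without each of the 12 mice in turn, and Nfkbia missed the threshold without AD mouse 1 (edgeR adjusted p = 0.0566), AD mouse 2 (0.0662) or HF + AD mouse 4 (0.0521). At an unadjusted edgeR p under 0.05 this list held 3 genes lower, the third being Ikbkb (−0.46, adjusted p = 0.0566), and 2 higher. The 2 higher were Rela, with all 7 HF + AD mice above every AD mouse (0.54, adjusted p = 0.0587), and Irak3, with 6 of 7 above (0.74, adjusted p = 0.0866).

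Among the genes known to be induced by IL-1, 12 of 15 were tested, and 8 lay above 0 and 4 below (median 0.91). Of the 12, 2 were called higher and 1 lower, beside 4.43% of all genes higher and 4.77% lower. Nfkbiz, which encodes the atypical inhibitor IκBζ, fell from 84.7 to 119 CPM in AD mice to 46.5 to 82.1 CPM in HF + AD mice, without overlap (log2 fold change −0.76, SE 0.16, edgeR adjusted p = 0.0113). Mmp3, the matrix metalloproteinase stromelysin, rose from 0.207 to 7.87 CPM to 4.33 to 152 CPM, and 6 of the 7 HF + AD mice lay above every AD mouse (log2 fold change 3.70, SE 0.89, edgeR adjusted p = 0.0186). Its AD counts were 2 to 89 (median 1.54 CPM), low for libraries with an estimated 12.01 to 32.2 counts per molecule, so the size of the change is uncertain. Mmp3 was called without each mouse in turn, with a log2 fold change of 2.68 without mouse 1 of the HF + AD group and 4.54 without AD mouse 4, but its adjusted p was 0.0688 in the two-group test with equal variances. The neutrophil-attracting chemokine Cxcl5 rose from 2.08 to 11.7 CPM to 2.61 to 178 CPM, with 5 of 7 above (log2 fold change 2.67, SE 0.80, edgeR adjusted p = 0.0450, two-sided exact permutation p = 0.0909). The call on Cxcl5 was kept only without HF + AD mouse 4, 5 or 6, and its edgeR adjusted p lay between 0.0528 and 0.102 without any other mouse. Without mouse 3 of the HF + AD group the log2 fold change of Cxcl5 was 1.73. Il6, Csf2 and Csf3 had too few counts to be tested. The calls in this list thus went both ways. At an unadjusted edgeR p under 0.05 the list held 4 genes higher and 1 lower, beside 25.1% of all genes (12.8% lower). The higher ones included Tnfaip3 (log2 fold change 1.66, edgeR adjusted p = 0.0960) and Lcn2 (0.91, adjusted p = 0.181), neither of them called.

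The remaining 3 lists held no call by edgeR, and 3 of their genes (Casp8, Casp1 and Areg) had an unadjusted p under 0.05. Of the other IL-1 family ligands and receptors 11 of 12 were tested, 9 above 0 and 2 below (median 0.10). The nearest to the threshold were Il18rap, a chain of the IL-18 receptor (log2 fold change 1.51, edgeR adjusted p = 0.250), Sigirr, an inhibitory receptor of the family (1.06, adjusted p = 0.374), and Il1rl2, the IL-36 receptor (1.58, adjusted p = 0.412). Of the inflammasome and processing genes 9 of 13 were tested, 4 above 0 and 5 below (median −0.20). Casp8 had a log2 fold change of −0.72 with an adjusted p of 0.0537, and Casp1, the protease that matures IL-1β and IL-18, had −0.47 with an adjusted p of 0.186, whereas Mefv, which encodes pyrin, had 1.14 with an adjusted p of 0.451. The inflammasome sensors Nlrp3, Nlrp1a, Nlrp1b and Nlrc4 had too few counts to be tested.

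Of the genes induced by IL-33 or TSLP, 6 of 12 were tested, 5 above 0 and 1 below (median 0.34). Areg, the epidermal growth factor receptor ligand amphiregulin, had a log2 fold change of 1.08 (edgeR adjusted p = 0.123), Cish, a target of STAT5, had 0.53 (adjusted p = 0.288) and the eosinophil chemokine Ccl24 had 1.78 (adjusted p = 0.337). The type 2 cytokines Il13, Il5, Il4 and Il9 had a count of 0 in every AD mouse and, with Ccl17 and Tnfsf4, had too few counts for the fit. Il13 had a count in 6 of the 7 HF + AD mice, at most 11 reads or 0.843 CPM (median 0.231 CPM, two-sided exact permutation p = 0.0341 on log2(CPM + 1)). A count of 0 allows up to 0.308 CPM in an AD library only if each count is a separate molecule. AD libraries had an estimated 12.01 to 32.2 counts per molecule, so their 0 counts allow more, and a difference in Il13 was not established. Il5 and Il4 had a count in 2 of the 7 HF + AD mice each and Il9 in 1. Areg was the only gene of this list with an unadjusted p under 0.05 in edgeR, and none of its 6 tested genes was called.

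**Figure D4:**
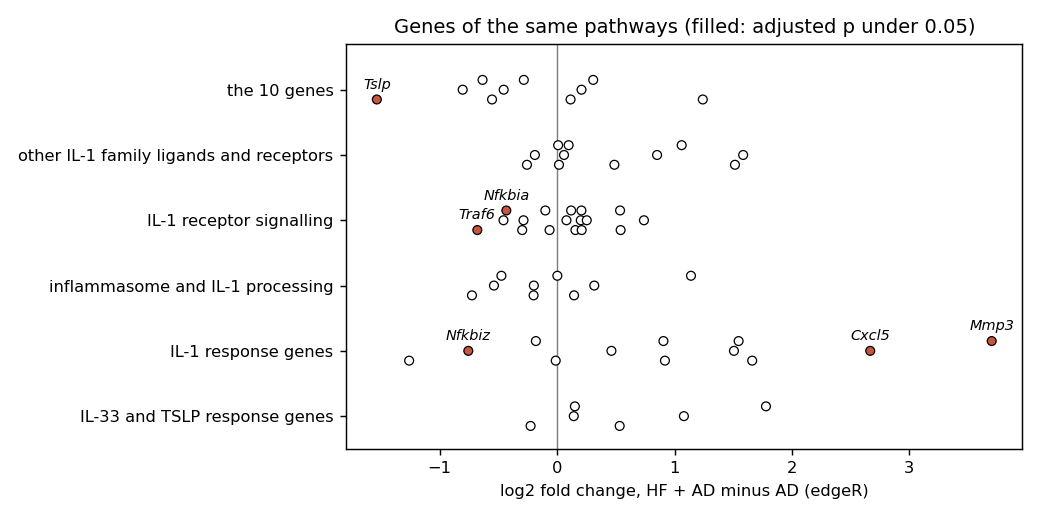
Fitted log2 fold change (HF + AD minus AD) on the x axis, with 1 point per tested gene, for the 10 genes in the top row and the 5 pathway lists below. Filled points have an edgeR adjusted p under 0.05: Tslp, Traf6, Nfkbia and Nfkbiz lie below 0, and Cxcl5 and Mmp3 lie above.

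Cell types that make or receive these cytokines were followed with 12 marker lists, given as the summed CPM of each list. Basal keratinocyte markers summed to 3918 to 5747 CPM in AD and to 6530 to 11214 CPM in HF + AD mice without overlap, and 3 of 8 were called higher, the keratins Krt5 (log2 fold change 0.81, edgeR adjusted p = 0.00679), Krt14 (1.05, adjusted p = 0.0248) and Krt15 (1.21, adjusted p = 0.0151). Krt5 alone made up the largest part of the sum, at 2234 to 3810 CPM in AD and 4048 to 6649 CPM in HF + AD mice. The other 5 were not called, with log2 fold changes of 0.39 for Itgb4, 0.14 for Itga6, 0.001 for Col17a1, −0.16 for Dst and −0.29 for Trp63. Suprabasal markers, at 718 to 2905 and 788 to 2132 CPM, and markers of hyperproliferative epidermis, at 8079 to 26579 and 7542 to 19153 CPM, held no call among 8 genes each. The 3 basal keratins, but not the other 5 markers of the list, were thus called higher in the HF + AD libraries, where the keratinocyte cytokine Tslp was lower. The part of these markers in the changes of the 10 genes was not tested.

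Macrophage and dendritic cell markers summed to 39.7 to 198 CPM in AD and 68.3 to 293 CPM in HF + AD mice, with 0 of 10 called by edgeR and 2 at an unadjusted p under 0.05. Neutrophil markers summed to 202 to 3704 and 102 to 720 CPM, with 1 of 6 tested genes called. This was Mmp9 (log2 fold change 5.61, SE 1.06, edgeR adjusted p = 0.00714). Its counts were 0 to 30 in AD mice, with a count in 3 of the 5, and 74 to 3359 in HF + AD mice. The AD level was near the floor of detection, so the size of the change is uncertain. At an unadjusted p under 0.05 there were 2 above 0, Mmp9 and Cxcr2 (2.02, adjusted p = 0.106), and 2 below, the alarmin subunits S100a8 (−1.53, adjusted p = 0.181) and S100a9 (−1.57, adjusted p = 0.108). Ltf was at 0 in every AD mouse and had a count in 2 of the 7 HF + AD mice. Mast cell markers summed to 143 to 308 and 135 to 375 CPM with 0 of 8 called, 6 above 0 and 2 below. Cpa3 was the 1 at an unadjusted p under 0.05 (log2 fold change 2.01, edgeR adjusted p = 0.0781), and Kit (−0.47) and Ms4a2 (−0.48) were the 2 below. Fcer1a, too low for the fit, was at 0 in every AD mouse and had a count in 6 of the 7 HF + AD mice, at up to 3.12 CPM (median 0.980 CPM, two-sided exact permutation p = 0.0189). With 12.01 to 32.2 counts per molecule in AD libraries, these 0 counts do not establish absence. T cell and innate lymphoid markers summed to 87.8 to 225 and 63.4 to 198 CPM with 0 of 6 called and 2 at an unadjusted p under 0.05. Fibroblast markers summed to 3305 to 9958 and 3335 to 10370 CPM with 0 of 8 called and 1 at an unadjusted p under 0.05. Of the structures that share the skin piece, 2 of 8 muscle markers were called lower, and 3 of 8 hair shaft markers, 2 of 8 endothelial markers and 1 of 7 tested adipocyte markers were called higher, beside 4.77% of all genes lower and 4.43% higher. The adipocyte call was Lipe (log2 fold change 0.95, edgeR adjusted p = 0.0456), in a list with 4 of 7 genes below 0 and a median of −0.21. Muscle summed to 1224 to 2562 and 773 to 1980 CPM, hair shaft to 2258 to 4476 and 3447 to 5852, endothelium to 58.4 to 113 and 70.6 to 143, and adipocytes to 104 to 749 and 94.6 to 595.

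To see which genes varied with each of the 10 from mouse to mouse, group means were removed from log2(CPM + 1) and each gene was ranked against 13199 or 13200 others over the 12 mice, which share depth and redundancy differences, so the highest r is a description. Il1b varied most like Stfa2l1, a stefin of neutrophils (r = 0.962, rho = 0.958), and like Cd300ld, a receptor of myeloid cells (r = 0.923). Il18 varied most like Asprv1, a protease of the granular layer of the epidermis (r = 0.948, rho = 0.958), followed by Map2 and Fam25c. Il1rl1 varied most like Mrc1, the macrophage mannose receptor (r = 0.974, rho = 0.951), with Cpxm1 and Fam198b next.

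Tslp varied most like Smad6, an inhibitor of bone morphogenetic protein signalling (r = 0.934, rho = 0.895), Nat8l (r = 0.885) and the aryl hydrocarbon receptor gene Ahr (r = 0.879). For Il1r1 the nearest were Ly6f (r = 0.903), Grn and Pxn, for Il33 Rap2a (r = 0.930), Ncoa7 and Atf5, and for Il1rap Vwa5a (r = 0.943), Uba6 and Shc4. Il1r2 varied most like Dpysl3 (r = 0.961), with Cxcr4 and Orm1 next, and Il1rn most like the thrombomodulin gene Thbd (r = 0.928), with the macrophage elastase Mmp12 and Zdhhc5 next. For the sparse counts of Il1a the nearest gene, Lrrc8c, reached 0.867, followed by Myo1f and Bbs1, and Eya1 was the third for Il1b. None of the 10 genes had another of the 10 among its 3 nearest.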

How the data were processed

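Skin RNA was sequenced with a 3′ mRNA kit (QuantSeq). The values that the authors deposited are raw counts of reads on each gene, listed by symbol. The submitters' processing notes name Bowtie2, bedtools and mm10 without roles. Versions, strand setting and treatment of duplicates are not given in the sources used here. Each mouse took its group from its label. Of 23282 entries, 35 symbols were listed more than once and 4677 entries had no count.

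Groups were compared with edgeR 4.0.16 in R 4.3.3 (TMM, filterByExpr, quasi-likelihood test, condition as the only term, Benjamini–Hochberg over 14163 genes, threshold 0.05). SEs are the log2 fold change over the root of the test's F. Single levels are log2(CPM + 1) with TMM-scaled totals and a pseudocount of 1, compared by exact permutation in Python 3.11.15 (SciPy 1.17.1). No p adjusted over the 10 genes alone is given. Counts per molecule were estimated per library from how often genes with 10 to 200 expected counts had 0. The expected count of a gene was its mean share in the other mice of the same group, scaled to the library total. Named are the 10 genes, the called genes of each pathway list or, where none was, the 3 with the smallest p, and the 3 genes most like each of the 10. Other genes are named outside this rule, after a look at their values. These are marker genes named beside list sums, pathway genes too low for the fit, and the signalling genes Ikbkb, Rela and Irak3. The IL-1 response genes Tnfaip3 and Lcn2, the keratins and collagen of the tissue check, and neighbouring genes were added likewise. Genes and lists were chosen with earlier results of these data known. The fits were tested on simulated counts with the same dispersion for every gene and both groups. The simulation held no redundancy and no difference in spread between groups, so it does not cover these features of the libraries. Alternatives were DESeq2 1.42.0 (size factors and Wald test), totals alone, other filters, limma-trend (limma 3.58.1) and a two-group test of log2(CPM + 1) with equal variances. Further alternatives were a replicate block, counts per molecule, leaving out each mouse and, for single levels, a pseudocount of 0.1 and a rank statistic. A correction for GC content in 20 bins, and leaving out each mouse for the 2 ratios of genes, were chosen after seeing the data.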

Additional observations from a re-analysis of the deposited data

How the results depend on the processing

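Of the 10 genes, 1 passed the threshold. The number was 2 (Tslp and Il1r1) with at least 10 counts in every mouse and with DESeq2's Wald test, and 0 with limma-trend, the two-group test, the replicate block and the GC correction, the last chosen after seeing the data. Without single mice it was 0 to 1. In all 22 alternatives Tslp and Il1r1 had an unadjusted p under 0.05 and a negative sign. The adjusted p of Tslp ran from 0.00959 to 0.146 and that of Il1r1 from 0.0283 to 0.153, and with counts per molecule Il1r1 passed in place of Tslp. Over all genes, 1303 calls became 192 with the replicate block and 639 to 1461 without single mice, the fewest without HF + AD mouse 2. They numbered 803, 686 and 794 without AD mouse 2, HF + AD mouse 1 and HF + AD mouse 4. The 5 calls among pathway genes became 10 with DESeq2's Wald test, 0 with the replicate block and 4 to 7 without single mice. Replicate numbers did not pair the mice: residuals of same-numbered mice correlated between −0.106 and 0.0724 over 5 pairs, and 1 of 5 AD mice matched best with its own number. By exact permutation 2 of the 10 genes (Tslp and Il1r1) had an unadjusted p under 0.05, and 1 to 3 did without single mice. The share of all genes under that p was not computed for this test. In edgeR 25.1% of all genes had an unadjusted p under 0.05. Fitted changes turned sign without single mice for Il1b (−0.16 to 0.83), Il33 (−0.75 to 0.0105) and Il1rap (−0.66 to 0.28), and differences in mean log2(CPM + 1) for Il1b (−0.14 to 0.53), Il33 (−0.57 to 0.0507), Il1rap (−0.33 to 0.34) and Il1r2 (−0.49 to 0.0075). The cause was not tested. Il1a had no value with at least 10 counts in every mouse or with counts per molecule.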

Other observations

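The balance of antagonist to agonist was read as the ratio of Il1rn to the sum of Il1a and Il1b in CPM, chosen after the values of single genes were seen. It was 0.15 to 0.853 (median 0.579) in AD and 0.222 to 1.75 (median 0.742) in HF + AD mice, and the difference of 0.30 on the log2 scale was smaller than the spread (two-sided exact permutation p = 0.630) and was −0.14 without AD mouse 2. The ratio of Il33 to its receptor Il1rl1, chosen in the same way, was 3.74 to 9.94 (median 4.51) in AD and 2.53 to 4.61 (median 3.64) in HF + AD mice. The mean difference was −0.55 on the log2 scale (two-sided exact permutation p = 0.0366, 0.0732 after adjustment over the 2 ratios). It leaned on AD mouse 1, whose ratio of 9.94 stood above 3.74 to 5.0 in the other 4 AD mice, and was −0.31 without it (exact permutation p = 0.109).

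Among the 10 relations of level with counts per molecule within the HF + AD mice, none had an adjusted p under 0.05. Il1rn had an r of −0.83 (exact permutation p = 0.0308, adjusted 0.244) and a rho of −0.54 (exact permutation p = 0.236, adjusted 0.337), and its r was 0.180 without the 2 mice farthest from the median, so that the relation rested on those mice. Il1rl1 had an r of −0.66 (exact permutation p = 0.102, adjusted 0.244) and a rho of −0.79 (exact permutation p = 0.0480, adjusted 0.220), and its r was −0.91 without the same mice.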
